A study of Mus musculus with 14 samples.

Results

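SIM2 sites that were seen in clone A6 alone, with no NANOG, OCT4, MED1 or MED12 peak beside them, numbered 337 of the 3565 SIM2 sites of the series and 337 of the 1161 sites found in A6 alone. The members were chosen by peak calls. Peaks of the 3 Sim2-expressing clones with centres within 100 bp were merged to a site of 100 bp, sites with a peak of the control line EB3 within 100 bp were dropped, and sites with a peak of any of the 4 cofactors within 100 bp were set apart. The main comparison was with the 794 A6-only sites that had a NANOG peak. In the A6-only sites, no cofactor peak was seen at 29.0% (95% Wilson interval 26.5 to 31.7), NANOG at 68.4%, OCT4 at 29.5%, MED12 at 16.3% and MED1 at 8.10%. A further 30 A6-only sites had OCT4 or Mediator but no NANOG and were not used. The study itself kept only the 1229 sites identified in at least 2 clones. Neither the members nor the A6-only NANOG sites are therefore among the binding sites it reported.

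The study asked where SIM2 binds in mouse embryonic stem (ES) cells. The clones A6, B8 and C4 carry a FLAG-tagged mouse Sim2 transgene in a ROSA-TET system, under a modified cytomegalovirus promoter that is active when tetracycline is absent. FLAG ChIP-seq was done with 1 library per clone and with 1 library of the EB3 parental line, which lacks the transgene, and NANOG, OCT4, MED1 and MED12 ChIP-seq with 1 library each in A6. All were cultured for 26 h in medium free of tetracycline. SIM2 was therefore overexpressed and tagged, and each clone is a single line. The cofactor peaks used here are from A6 only, so that a cofactor at a B8-only site was read from another clone. The paper also reports SOX2 ChIP-seq in A6, and those peaks were not used here. Sites without a cofactor are therefore sites without a NANOG, OCT4, MED1 or MED12 peak. Whether they had a SOX2 peak was not tested.

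SIM2 belongs to the basic helix-loop-helix PAS family, whose members bind DNA as dimers with ARNT or a related partner. The basic regions of many such dimers, though not of all, contact a short core, ACGTG, and the base before the core differs among them. NANOG and OCT4 are transcription factors of the pluripotent state, and MED1 and MED12 are subunits of Mediator, the complex that links enhancers with RNA polymerase II. OCT4 binds an octamer and often acts beside SOX2.

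Below are the 100 bases of 4 of the members with the highest SIM2 tag count in A6, shown because they are among the strongest. All sequences are from the mm9 genome, forward strand, and are named by the nearest protein-coding transcription start site (TSS). Capitals would mark the core ACGTG or its reverse complement CACGT, and none of these 4 intervals holds it. The Hey1 site, which tied with the Evl site at a tag count of 15.9, is not printed. It held the core in the 200 bp around its centre.
Zfpm2 site, chr15:40810753-40810852: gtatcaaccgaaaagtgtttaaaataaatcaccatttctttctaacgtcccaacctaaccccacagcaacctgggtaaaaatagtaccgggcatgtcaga
Gm10322 site, chr10:59000451-59000550: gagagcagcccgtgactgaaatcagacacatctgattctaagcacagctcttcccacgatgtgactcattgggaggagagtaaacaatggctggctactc
Rbm20 site, chr19:53822590-53822689: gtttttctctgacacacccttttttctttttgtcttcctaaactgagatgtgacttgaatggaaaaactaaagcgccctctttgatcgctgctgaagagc
Evl site, chr12:109791557-109791656: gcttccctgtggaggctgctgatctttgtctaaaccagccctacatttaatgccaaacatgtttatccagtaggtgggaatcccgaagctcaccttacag

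The next 5 are among the 6 members with the highest tag count of the 19 whose core lay within 10 bp of the site centre. They were picked after their values were seen, and show the word that differed between the sets. Capitals mark the core on either strand, and neighbouring capitals in the Upp1 and Msi1 sites are the palindrome CACGTG, which holds the core on both strands.
Mosc2 site, chr1:186669779-186669878: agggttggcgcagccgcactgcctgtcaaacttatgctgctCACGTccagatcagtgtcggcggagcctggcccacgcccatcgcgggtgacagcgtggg
Upp1 site, chr11:9016296-9016395: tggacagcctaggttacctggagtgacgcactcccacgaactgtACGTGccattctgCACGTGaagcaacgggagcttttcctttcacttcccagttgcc
Cbx8 site, chr11:118902387-118902486: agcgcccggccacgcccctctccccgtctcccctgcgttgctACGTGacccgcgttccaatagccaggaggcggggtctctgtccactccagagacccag
Dapp1 site, chr3:137640901-137641000: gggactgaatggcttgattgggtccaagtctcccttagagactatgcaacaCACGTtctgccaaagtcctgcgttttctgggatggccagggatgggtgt
Msi1 site, chr5:115854452-115854551: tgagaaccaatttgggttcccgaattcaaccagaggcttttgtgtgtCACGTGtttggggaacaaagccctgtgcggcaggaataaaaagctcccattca

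The last set is the pair of A6-only NANOG sites with the highest tag count, for contrast. Capitals mark the SOX words CATTGT and CTTTGT and the octamer words ATGCAAAT and ATGCTAAT on either strand, and the Nkx6-3 site holds none of them.
Brd1 site, chr15:88539424-88539523: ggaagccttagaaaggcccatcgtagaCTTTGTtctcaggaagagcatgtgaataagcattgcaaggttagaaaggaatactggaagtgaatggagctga
Nkx6-3 site, chr8:24273433-24273532: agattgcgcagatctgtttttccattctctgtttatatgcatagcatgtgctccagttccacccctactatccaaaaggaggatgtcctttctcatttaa

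The SIM2 peaks of the members were weak ones. The A6 normalized tag count, the tags in a peak scaled to library size by the authors' peak caller, ranged from 8.6 to 18.9 with a median of 9.9 and quartiles of 9 and 11.2. The A6-only NANOG sites ranged from 8.6 to 23.6 with a median of 10.1, so the values of the 2 sets lay almost on top of each other. Sites with an A6 peak of any kind, 2377 in all, reached 42.5 with a median of 11.2. The members' peak score, in tags, had a median of 24 against a lowest score of 20 in the whole A6 list, and 34.4% of the members (116 of 337) had a score of 22 or less. Their fold over the input had a median of 6.49, the same as at the NANOG sites, with a range of 4.09 to 12.42. In 301 of the 337 members the input stood at its lowest value in the list, 1.8 tags, and the fold then follows the tag count alone.

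The shape of the peaks differed more than their height. The focus ratio, the fraction of a peak's tags that HOMER finds on the expected side of the peak centre, had a median of 0.788 at the members and 0.727 at the NANOG sites. It was at least 0.8 at 48.4% of the members (43.1 to 53.7) and 20.3% of the NANOG sites (17.6 to 23.2). Sites of 2 or more clones without a cofactor had a median of 0.794, and those with NANOG 0.731. These A6 values come from the list that chose the members, and are given without a test.

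**Figure D1:**
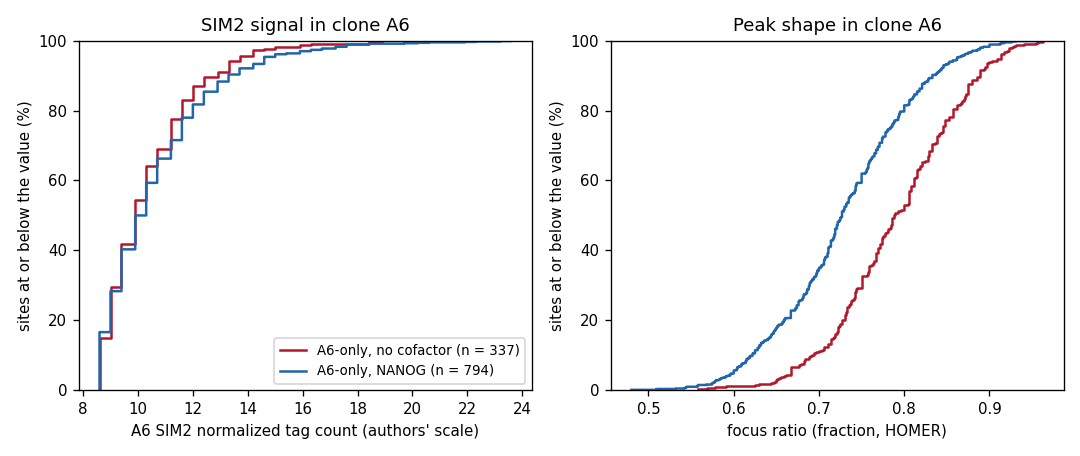
Cumulative share of sites (y axis, %) by A6 normalized tag count (left) and focus ratio (right), for the 337 members (red) and the 794 A6-only NANOG sites (blue). The tag counts nearly coincide, with medians of 9.9 and 10.1, while the focus ratios of the members lie to the right, with medians of 0.788 and 0.727.

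The members with the highest tag count are named by their nearest protein-coding TSS, for description. The first was at chr15:40810753-40810852, in an intron and 227509 bp downstream of the nearest TSS, that of Zfpm2, a cofactor of GATA factors, with a tag count of 18.9. Its nearest NANOG peak was 113 bp away, just past the limit. The next were sites with a tag count of 18.4 nearest to Gm10322 and to Rbm20, and Rbm20 encodes a splicing factor. Csnk1a1, encoding casein kinase 1 alpha, was the nearest gene of a site with 16.3. A site with 15.9 lay 1324 bp upstream of Evl, an actin regulator, and another with 15.9 lay 18334 bp upstream of Hey1, a Notch-responsive repressor. The Hey1 site held CACGTG and had its nearest NANOG peak 175245 bp away. Sites nearest to 5730522E02Rik and Fam160b1 had 15, and one nearest to Gm6994 had 14.6. The tenth place was shared by 6 sites with 14.2, nearest to Mosc2, Gm10132, Tbc1d4, Prrx2, Tsc22d4 and March8. Of these 15 sites, the core was present within 100 bp of the centre at those of Hey1, Mosc2 and Tsc22d4.

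The strongest A6-only NANOG sites were nearest to Brd1 (23.6), Nkx6-3 (23.2) and Stmn2 (22.3), all above the strongest member in normalized tag count.

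Members were found at promoters more often than A6-only NANOG sites. A promoter was taken as 1 kb upstream to 300 bp downstream of a protein-coding TSS of GENCODE vM1, and it held the centre of 30 members, 8.90% (6.31 to 12.4), against 26 NANOG sites, 3.27% (2.24 to 4.75). The difference was 5.63 percentage points with a 95% interval of 2.64 to 9.30 (Fisher's exact test, two-sided, p = 0.000142, Benjamini-Hochberg adjusted p = 0.000891 over the 44 features of position and sequence tested). Such tests compare the sites of 1 library, and sites are not replicates of a condition. Intergenic centres were fewer among the members, at 43.6% against 57.4% (adjusted p = 0.000214, exact test). With cofactor peaks of at least 8 times the input, the promoter difference was 3.11 percentage points (exact test, adjusted p = 0.0627). Introns held 43.0% and 37.3%, and exons 4.45% and 2.02%, and neither difference passed the exact test (adjusted p = 0.177 and 0.0820). A TSS lay within 100 kb of 86.4% of the members and 78.0% of the NANOG sites (exact test, adjusted p = 0.00407), which did not pass with stricter SIM2 or cofactor peaks (7.57 and 5.62 percentage points). The median distance to the nearest TSS was 18088 bp for the members and 26291 bp for the NANOG sites.

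The 5 promoter members with the highest tag count stood at Mosc2 (14.2), which encodes a mitochondrial reductase, March8 (14.2), a membrane-bound ubiquitin ligase, Tet2 (13.7), an enzyme that oxidizes 5-methylcytosine, Zfp64 (12.4), a zinc finger protein, and Gtpbp5 (12), a mitochondrial GTPase. The Tet2 site was centred 15 bp downstream of its TSS and had 27 CpG in the 200 bp around the centre, against a median of 3 over the members. The Mosc2 site was centred 68 bp upstream of its TSS, with 15 CpG. In contrast, the March8 and Gtpbp5 sites, 865 and 895 bp upstream, had 1 and 2 CpG.

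The genes of the ES cell, bHLH-PAS and neural lists are given next for description. Of 17 pluripotency regulators found in the annotation, 0 had a member within 10 kb of a TSS, and 6 had an A6-only NANOG site (Fgf4, Lefty2, Nanog, Nr5a2, Pou5f1 and Tdgf1). Of 31 neural developmental regulators, Dll1, a Notch ligand, had a member, and Nkx2-2 and Sox11 were among those with a NANOG site. Of 22 bHLH-PAS genes, 0 had either. Of all 22232 protein-coding genes, 153 (0.688%) had a member within that distance and 253 (1.14%) a NANOG site, so lists of this size would hold few genes near a member in any case, and nothing is read from the members' counts. The Dll1 site was 4709 bp upstream of the TSS, with a tag count of 9.9 and 11 CpG, and its nearest NANOG peak was 169040 bp away.

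The core ACGTG was more common at the members than at A6-only NANOG sites. It was present, on either strand in the 200 bp around the centre, at 72 members, 21.4% (17.3 to 26.1), and at 54 NANOG sites, 6.80% (5.25 to 8.77). The difference was 14.6 percentage points (10.1 to 19.5; Fisher's exact test, two-sided, p = 1.09e-11, adjusted p = 2.40e-10). Background shares of the same word were 10.4% in windows 10 kb to either side of the members, 7.56% in windows 10 kb to either side of the NANOG sites, 8.64% in the 81 EB3 peaks and 4.91% in 12582 NANOG peaks without a SIM2 site. The NANOG sites thus held the word no more often than their own flanks, and the members held it 2.06 times as often as theirs. Where SIM2 peaks had to be at least 8 times the input, which left 122 sites of which 41 were members here, the difference was 6.13 percentage points (exact test, adjusted p = 0.327). A match is a run of letters and does not show that SIM2 touched it.

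The longer forms of the core were also more common at the members. TACGTG was present at 5.04% of the members and 1.39% of the NANOG sites (adjusted p = 0.00302), AACGTG at 6.53% and 2.39% (adjusted p = 0.00508), and CACGTG, the E-box, at 5.04% and 1.13% (adjusted p = 0.00135, all exact tests). These calls were less stable than that of the core, and were lost under 4, 3 and 2 of 15 alternatives. With SIM2 peaks at least 8 times the input none of the 3 passed and TACGTG turned to -1.82 percentage points. The last form, GACGTG, was not in the list of words tested, and was present at 7.12% and 2.14%. All 4 bases before the core were therefore found at the members, with 17, 22, 17 and 24 sites, and a site can hold more than 1 form.

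The word was densest near the centre of the members, though it lay within 10 bp of the centre at only 19 of 337. Within 25 bp of the centre it occurred 2.54 times per kb of sequence at the members, falling to 1.48 at 25 to 50 bp, 0.950 at 50 to 100 bp and 0.783 at 500 to 1000 bp, where CACGTG counts once per strand. At the A6-only NANOG sites the central density was 0.463 per kb and that at 500 to 1000 bp was 0.710, with no rise toward the centre. Sites in 2 or more clones without a cofactor had 2.89 per kb at the centre, and those in 2 or more clones with NANOG had 1.26, against 0.592 at 500 to 1000 bp.

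**Figure D2:**
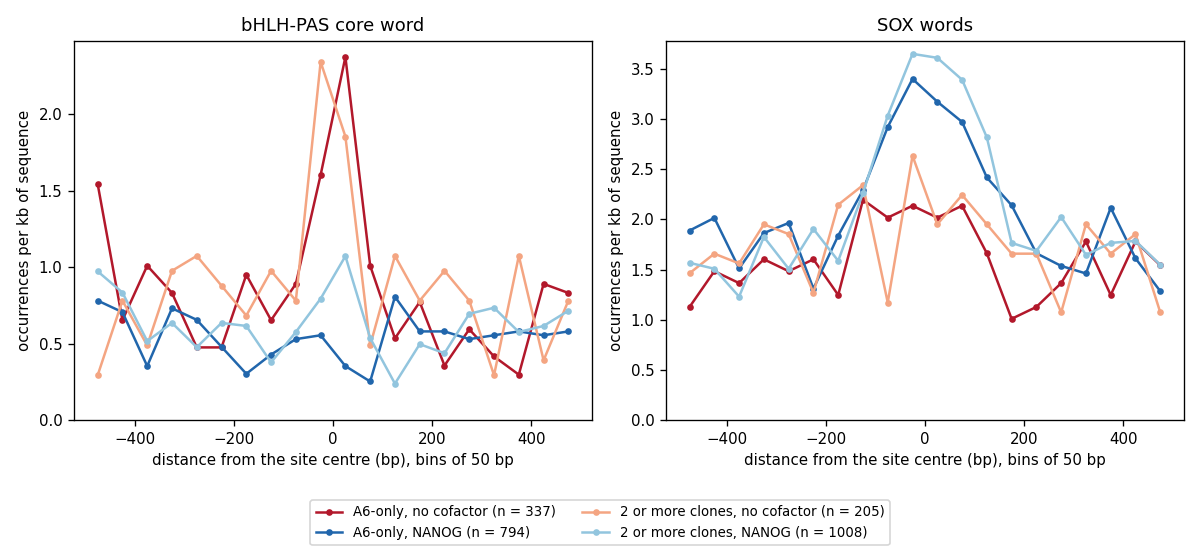
Occurrences per kb (y axis) of the core ACGTG (left) and of the SOX words (right) by distance from the site centre (x axis, bp, in bins of 50 bp), for the members (red), A6-only NANOG sites (dark blue), and sites of 2 or more clones without a cofactor (orange) and with NANOG (light blue). The core rises at the centre of both sets without a cofactor, but not of the A6-only NANOG sites. At the NANOG sites of 2 or more clones it rises to a lower density (1.26 per kb within 25 bp). The SOX words rise most at the A6-only NANOG sites and those of 2 or more clones (3.44 and 3.50 per kb within 25 bp). They rise less at the members and the sites of 2 or more clones without a cofactor (2.18 and 2.09, against 1.46 and 1.59 at 200 to 500 bp).

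The members were richer in G+C and CpG, which the core contains. G+C exceeded 50% of the 200 bp at 55.5% of the members and 24.6% of the NANOG sites (adjusted p = 2.69e-21, exact test), and the mean number of CpG was 4.01 and 2.26. A CpG island-like composition, with an observed over expected CpG ratio above 0.6 as well, was present at 18 members (5.34%) and 6 NANOG sites (0.756%; exact test, adjusted p = 7.31e-05), and outside promoters the difference of 0.978 percentage points did not pass. The core was therefore also compared within 5 groups of windows with like numbers of CpG, a test added after the data were seen, and the pooled odds ratio was 2.52 (Mantel-Haenszel, 95% interval 1.69 to 3.76), against 3.72 without the groups. The members had the higher share in each group, at 7.35% against 2.10% in windows with at most 1 CpG, 23.4% against 7.45% with 2, 17.3% against 7.29% with 3 or 4, 27.8% against 19.0% with 5 to 8, and 46.4% of 28 members against 2 of 8 NANOG sites with 9 or more. Counted per CpG, 5.91% of the members' CpG (4.78 to 7.30) lay in the core, 3.17% of the A6-only NANOG sites' (2.46 to 4.09) and 4.67% of those in the members' flanks (3.76 to 5.79), so the intervals of the members and their flanks overlapped. The NANOG sites of 2 or more clones had 5.62% (4.75 to 6.64), near the members, so the low share was not common to all SIM2 sites with NANOG. Among sites of 2 or more clones, the odds ratio of the core, without a cofactor against with NANOG, was 2.12.

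The core was also set beside the 24 words, itself included, that hold a CpG and are made of its bases. The word CGTGA exceeded the members' flanks by the most, by 15.1 percentage points, and the core came next with 11.0. The word after these was ATGCG with 8.16. Outside these 24, words looked at after their values were seen exceeded the flanks by more than the core did. GCGTG was present at 72 members (21.4%) and 9.35% of the flanks, and GTGAC at 41.2% and 27.6%. The excess over the flanks was therefore not particular to the core. These words share letters with it, however, CGTG in CGTGA and GCGTG and GTG in GTGAC. How far their excess comes from the same places in the sequence was not tested. At the A6-only NANOG sites GCGTG was present at 11.5% and GTGAC at 31.6%. CGTGA is the core shifted by 1 base, and CGTGAC, looked at after its values were seen, was present at 12.2% of the members, 3.53% of the A6-only NANOG sites and 1.63% of the members' flanks. The full ACGTGAC was present at 19 members, 6 NANOG sites and 1 of 674 flank windows, and is in the Cbx8 site printed above. CGTGAC without the A before it is in the Gm10322 site. Either ACGTG or CGTGAC was present at 92 members, 27.3% (22.8 to 32.3), and at 9.07% of the NANOG sites (7.26 to 11.3), so that most members held neither.

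The core was spread over classes of members. It was present at 11 of 30 promoter members (36.7%, 21.9 to 54.5) and 61 of 307 members elsewhere (19.9%, 15.8 to 24.7), with 21.4% in introns and 19.0% between genes. At NANOG sites outside promoters it was present at 6.64%. The 11 promoter members with the core, named here after their values were seen, were those of Mosc2, Ngfr, Cbx8, Cdkn1a, Tet2, Rbm47, Rgma, 2310057M21Rik, Skor1, 2610101N10Rik and Pcyt1b. Cdkn1a encodes an inhibitor of cyclin-dependent kinases, Ngfr a neurotrophin receptor, Rgma a guidance molecule for axons, and Cbx8 a Polycomb protein. The tag count of the members with the core was no higher than that of the others, with medians of 9.4 (72 members) and 9.9 (265 members).

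The SOX words were rarer at the members, at 32.6% (27.9 to 37.8) against 46.2% (42.8 to 49.7) of the A6-only NANOG sites (adjusted p = 0.000214, exact test). With SIM2 peaks at least 8 times the input the difference was -10.3 percentage points and did not pass (adjusted p = 0.218, exact test). Their density within 25 bp of the centre was 2.18 per kb at the members and 3.44 at the NANOG sites, and at 500 to 1000 bp it was 1.54 and 1.64. The octamer words were at 6.53% and 10.2%, a difference that did not pass the exact test (adjusted p = 0.141, interval of the difference from -6.84 to 0.0209 percentage points), and that passed without B8 (-5.61 percentage points, adjusted p = 0.000851). The members were not without octamers near their centres, with 0.484 per kb within 25 bp against 0.0890 per kb at 500 to 1000 bp. The rule took sites with a NANOG or OCT4 peak out of the members, and 41.2% of the NANOG sites also had an OCT4 peak. How much of the differences in SOX and octamer words follows from that choice of sites was not tested. SOX2 peaks were not used, so whether the SOX words of either set lay under a SOX2 peak was not tested.

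Words of 3 other factor families were more common at the members. The KLF word CCNCACCC was at 20.8% against 13.6% (adjusted p = 0.0107), the SP word GGGCGG at 10.1% against 3.65% (adjusted p = 0.000355), and the CTCF core words AGGGGGC and AGGTGGC at 11.3% against 6.68% (adjusted p = 0.0372, exact tests). The CTCF words lost their call under 10 of 15 alternatives and the KLF word under 3, the windows of 100 and 400 bp (2.99 and 6.81 percentage points) and SIM2 peaks at least 8 times the input (0.0816). All are rich in G+C, which also differed between the sets. CCTGCTG was at 15.7% of both sets, the TEAD word CATTCCA at 7.42% and 7.43%, and the ESRRB word AAGGTCA at 12.5% and 14.6%, and these 3 did not pass. ATTCC, looked at after its values were seen, was at 40.9% of the members and 46.7% of the NANOG sites, above the 27.6% of the members' flanks.

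In all, 14 of the 44 features differed between the members and the A6-only NANOG sites, 4 of 25 of position and 10 of 19 of sequence, and 12 of the 14 were higher at the members. The last feature of position was chromosome 7, which held 33 members (9.79%) and 35 NANOG sites (4.41%; exact test, adjusted p = 0.00395), while with SIM2 peaks at least 8 times the input the difference was 0.635 percentage points and did not pass. Per length, however, chromosome 11 held the most members, 0.246 per Mb against 0.216 on chromosome 7, and chromosome X the fewest, 0.0180. The members were scattered, with 14 of 337 within 10 kb of another member.

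**Figure D3:**
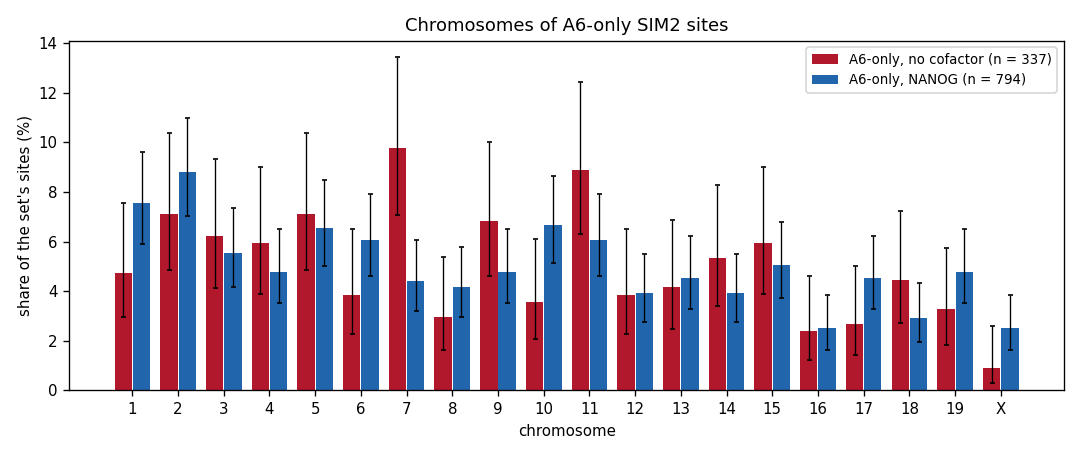
Share of each set's sites (y axis, %) on each chromosome (x axis), for the 337 members (red) and 794 A6-only NANOG sites (blue), with 95% Wilson intervals as error bars. Chromosome 7, with 9.79% and 4.41%, is the chromosome where the sets differed beyond the adjusted threshold.

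Sites without a cofactor that were found in 2 or more clones, of which there were 205, were not told apart from the members by any feature. By Fisher's exact test 0 of the 44 features passed after adjustment, and 4 had an unadjusted p under 0.05. ACGTG was at 21.4% and 22.4%, a difference of -1.07 percentage points with an interval from -8.46 to 5.91. Promoters held 8.90% and 10.2% (interval of the difference from -6.89 to 3.59), and SOX words were at 32.6% and 33.2% (from -8.77 to 7.46). The 4 features under 0.05 before adjustment were the SP word, at 34 of 337 and 37 of 205, G+C over 50%, at 55.5% and 65.9%, chromosome 7, at 9.79% and 3.90%, and chromosome 19, at 3.26% and 0.488%. The A6 tag count was higher in the 203 of these sites that A6 shared, with a median of 12 against 9.9 at the members.

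The 437 sites without a cofactor that were found in B8 alone did differ from the members, at 17 of the 44 features. ACGTG was at 9.84% of them against 21.4% (adjusted p = 5.49e-05, exact test), promoters held 1.83% against 8.90% (adjusted p = 4.15e-05), and G+C exceeded 50% at 15.3% against 55.5% (adjusted p = 6.87e-31). The mean number of CpG was 1.53 at the B8-only sites and 4.01 at the members. Counted per CpG, however, 6.72% of the B8-only sites' CpG (5.06 to 8.87) lay in the core, against 5.91% of the members' (4.78 to 7.30). The core was thus not rarer per CpG at the B8-only sites. It was less dense at their centre, with 0.701 per kb within 25 bp against 2.54 at the members. Of the B8-only sites, 97 (22.2%) were on chromosome 14. Without that chromosome, a choice made after the data were seen, ACGTG was at 10.9% of 340 B8-only sites and 21.9% of 319 members (exact test, adjusted p = 0.000825), and 11 features differed. With SIM2 peaks at least 8 times the input, 7 B8-only sites were left beside 122 A6-only sites, and 0 features passed Fisher's exact test, with 1 at an unadjusted p under 0.05. The peak score of the B8-only sites in their own list had a median of 12, against a lowest score of 11 in that list.

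**Figure D4:**
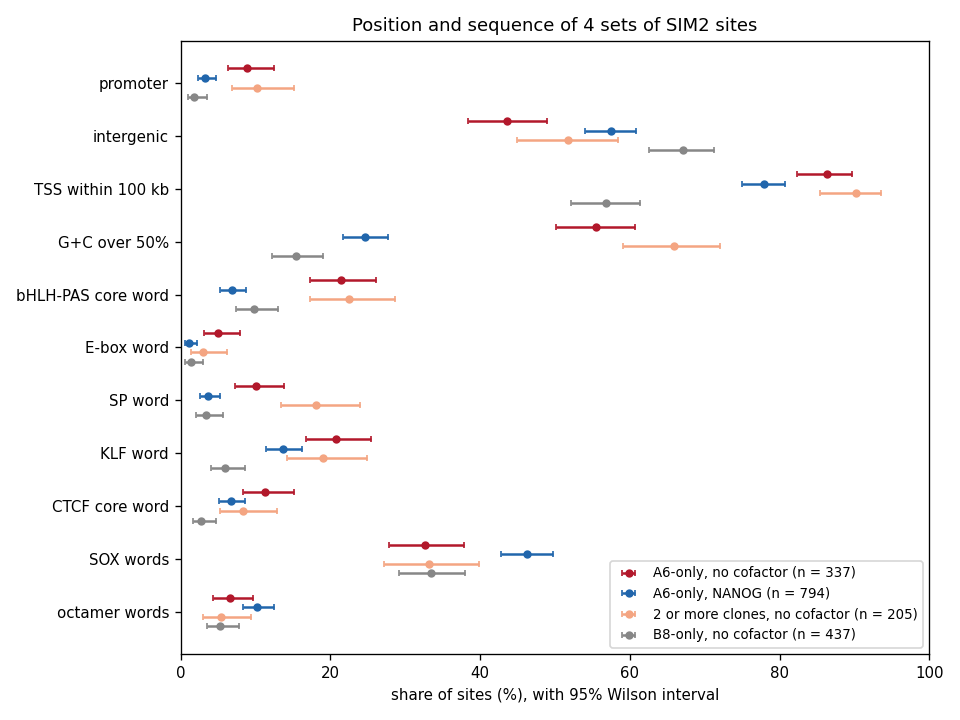
Share of sites (x axis, %) with each feature (y axis), as points with 95% Wilson intervals, for the members (red), A6-only NANOG sites (blue), sites of 2 or more clones without a cofactor (orange) and B8-only sites without a cofactor (grey). The members lie near the orange points for the core ACGTG (21.4% and 22.4%) and away from the blue (6.80%).

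NANOG peaks were still found around many members at larger distances. The nearest one was at most 1000 bp from 52 members (15.4%), at most 10 kb from 40.9% (35.8 to 46.3), and a median of 18284 bp away. OCT4 peaks lay within 10 kb of 13.1%, MED12 peaks of 10.4% and MED1 peaks of 8.01%. The median distance to a NANOG peak was 21406 bp for sites of 2 or more clones without a cofactor and 60242 bp for B8-only sites. At the limit of the rule, the 5 members closest to a cofactor peak had a NANOG peak 101 to 109 bp away, and the 5 sites that were set apart with the widest gap had a NANOG or MED12 peak at 94 to 96 bp.

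**Figure D5:**
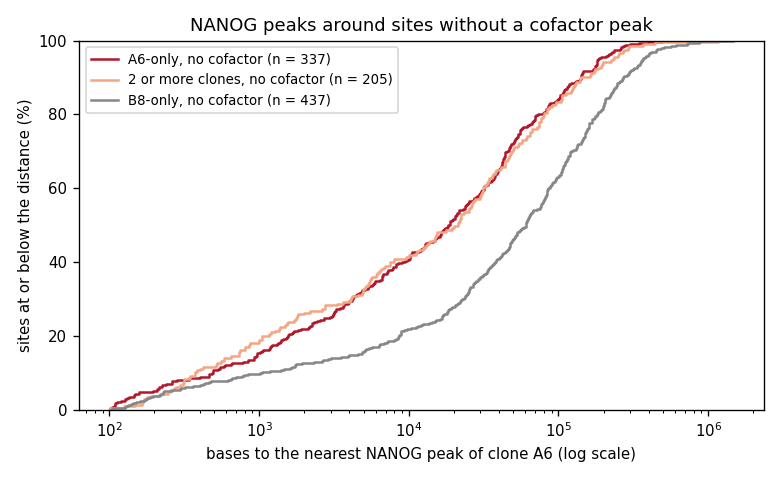
Cumulative share of sites (y axis, %) by the bases to the nearest NANOG peak of A6 (x axis, log scale), for the members (red), sites of 2 or more clones without a cofactor (orange) and B8-only sites without a cofactor (grey). The red and orange curves nearly coincide, with medians of 18284 and 21406 bp, and the grey curve lies to the right, with a median of 60242 bp.

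Peaks of the other clones were seldom found just beyond the merging distance. A B8 peak centre lay within 200 bp of 2 members (0.593%, 0.163 to 2.14) and 60 A6-only NANOG sites (7.56%, 5.92 to 9.61), and within 1000 bp of 14 and 109. A C4 centre lay within 1000 bp of 4 members, and 0 members had an EB3 centre within 10 kb. Tag counts in A6 rise in steps that correspond to 23.3 M tags if scaled to 10 M, against 14.7 M in B8 and 13.6 M in C4, and the lowest scores in the 3 lists were 20, 11 and 11. The part of these differences in a site being found in A6 alone was not tested.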

How the data were processed

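Peak lists of FLAG ChIP-seq in 3 Sim2-expressing clones and EB3, and of NANOG, OCT4, MED1 and MED12 ChIP-seq in A6, 8 in all with 1 library each, were used. The authors mapped reads to mm9 with BWA and called peaks against input with HOMER, in each library separately (versions are not given in the sources used here). As deposited, the normalized tag count is a signal that HOMER scaled to library size. Focus ratios, a fraction, are as deposited, the score is the number the authors' HOMER run gave each peak, and the authors' lists also give fold values, the ratio to the input, with a p-value. A6 tag counts were compared within A6 only.

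Sites were built as the report describes. Genes came from GENCODE vM1 and sequence from the NCBIM37 genome, which is mm9. Features were promoter, exon, intron, intergenic, TSS within 100 kb, 20 chromosomes, G+C, CpG island-like composition and 17 words, searched on both strands in 200 bp. The longer forms of ACGTG overlap it. The other words were CRE, NRF1, YY1, ETS and AP-1 words, which did not pass. Shares carry 95% Wilson intervals, and differences of shares Newcombe intervals, which cover counting error only. Each feature was tested by Fisher's exact test, two-sided, adjusted over the 44 features of a comparison with a threshold of 0.05. The members, lists and words were chosen with earlier results of these data known. Sites named are the 10 members, 5 promoter members and 3 NANOG sites with the highest A6 tag count, with ties, and members within 10 kb of a listed gene. Some items that this rule or the gene lists select are not reported here. The gene lists held 18 pluripotency, 22 bHLH-PAS and 32 neural genes.

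In a test on simulated data, 948 of 948 sites were recovered with their clones and cofactors. Of 1000 features simulated with an odds ratio of 3 between 337 and 794 sites, 1000 passed, and 31 of 3400 without a difference did. The simulated features were independent and started from a share of 0.1, so rarer features and words that overlap were not covered. Alternatives covered merging, the cofactor window, peak thresholds, the EB3 filter, each clone, annotation and sequence windows. Python 3.11.15, scipy 1.17.1 and statsmodels 0.14.6 were used.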

Additional observations from a re-analysis of the deposited data

How the results depend on the processing

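The number of members was 337, and 122 when SIM2 peaks had to be at least 8 times the input and 599 when cofactor peaks had to be. Of those 122, 41 were members here, since the same limit took peaks of B8 and C4 away from shared sites. With the stricter SIM2 peaks the ACGTG difference was 6.13 percentage points (exact test, adjusted p = 0.327), 3 features of sequence passed in place of 10, 0 features differed from B8-only sites in place of 17, and the differences of TACGTG (-1.82) and the CTCF words (-1.02) turned, neither passing. With the stricter cofactor peaks 6 features of sequence passed, and the promoter difference was 3.11 percentage points (exact test, adjusted p = 0.0627). The cause was not tested. Leaving out chromosome 14 left 11 differences from B8-only sites in place of 17. Leaving out B8 or C4 gave 502 and 344 members, with ACGTG differences of 12.6 to 14.7 percentage points, and leaving out A6 leaves no such site. The other alternatives left the ACGTG and promoter differences past the threshold, at 8.02 to 15.8 and 4.65 to 7.80 percentage points. No paired analysis was possible because each list is a single library and the tests compare sites. The lists give peaks and no reads, so signal under a peak threshold in B8 or C4 could not be measured.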
